A study of Homo sapiens with 2 samples.

Results

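The genes described here are the protein-coding ZNF genes of human chromosome 19. They were taken from the deposited count table as the rows annotated as protein-coding, located on chromosome 19 and named ZNF followed by a number, which gave 249 of the 58735 gene rows. The 265 ZNF genes of the other chromosomes, chosen by the same name rule, served as background. The study compared 1 RNA-seq library of SUIT-2 cells treated with dihydroartemisinin (DHA, the active metabolite of artemisinin antimalarials) with 1 library of untreated cells (labelled NC, with no word on a vehicle). SUIT-2 cells derive from a human pancreatic adenocarcinoma, and both libraries came from a derivative line with high metastatic potential. Dose and duration were not given in the sources used here. With 1 library in each group there was no replicate check and no test across cultures, so higher and lower describe this pair of libraries, and every interval covers counting error only.

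ZNF genes encode C2H2 zinc finger proteins, in which a pair of cysteines and a pair of histidines hold a zinc ion and each finger contacts a few bases of DNA. Many of those on chromosome 19 also carry a KRAB domain, which recruits the scaffold protein TRIM28, the histone methyltransferase SETDB1 and HP1 proteins to silence chromatin, often at transposable elements. The family grew by tandem duplication, so its members lie in clusters and their finger exons resemble each other. Of the 249 members, 239 carried the zf-C2H2 label in the deposited transcription factor column.

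The repeat that defines the family is visible in the transcripts. The lines below give a stretch of 101 bases from the coding region of ZNF160 and ZNF841, which were higher in the DHA library, and of ZNF681, which was lower. Capitals mark matches to CANACNGGNGANAANCC, searched on the transcript strand. A match covers the last histidine codon of a finger and the conserved linker that follows it. The lower case bases between 2 matches hold the rest of a single finger. The repeat unit is 84 bases long.
ZNF160: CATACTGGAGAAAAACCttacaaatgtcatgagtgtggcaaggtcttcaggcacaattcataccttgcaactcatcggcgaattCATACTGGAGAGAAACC
ZNF841: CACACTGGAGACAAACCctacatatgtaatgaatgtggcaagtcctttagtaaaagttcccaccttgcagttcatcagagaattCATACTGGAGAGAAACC
ZNF681: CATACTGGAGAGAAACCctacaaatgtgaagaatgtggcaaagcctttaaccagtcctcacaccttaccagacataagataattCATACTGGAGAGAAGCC
The sequences come from GENCODE release 29 transcripts (GRCh38), all from minus strand genes of chromosome 19, at chr19:53069515-53069615 for ZNF160, chr19:52066767-52066867 for ZNF841 and chr19:23744456-23744556 for ZNF681. ZNF160 and ZNF841, which lie in the same cluster, were identical at 82 of 101 positions. ZNF160 and ZNF681 were identical at 77, and ZNF841 and ZNF681 at 78. Each stretch is the first coding pair of linker matches 84 bases apart in its gene, so the fingers were not matched between genes. Both ends of every stretch match the searched motif by selection, which fixes part of this identity in advance. The longest transcript held at least 1 linker match in 210 members (84.3%), with a median of 6 and a maximum of 25, against 169 (63.8%) of the ZNF genes of other chromosomes and 2.62% of all protein-coding genes. Because of such repeats some reads may fit several genes. A median of 5.07% of the 50-base words of a member's transcripts also occurred in transcripts of another gene. For 26 members the share was over 30%. This share also counts genes annotated at the same place, and 12 members had over 50% of their exon length overlapping another gene. ZNF709, for instance, had 79.2% of its exon length and 78.9% of its words shared. How the counting treated such reads, and whether it used strand, is unknown here, so the values of those 26 are uncertain.

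The libraries held 14521101 (DHA) and 15452609 (untreated) counted reads. Scaling used edgeR's TMM normalization, with factors of 1.00 and 0.996. All 6 epithelial markers checked were detected in both libraries, with summed reads of 20687 (DHA) and 52535 (untreated), ranging from CDH1 with 23 and 933 reads to CLDN4 with 1613 and 1528. The 4 pancreatic cancer markers summed to 177 (DHA) and 3813 (untreated) reads, ranging from MUC5AC with 43 and 2739 to S100P with 10 and 0. The 4 fibroblast markers summed to 13 and 109, and the 2 endothelial markers to 54 and 280, all from PECAM1. DCN, COL1A2 and CDH5 had no reads in either library. The part of these differences in the results on ZNF genes was not tested. The protocol text in the labels names retina, but of 8 retinal markers 5 had no reads in the DHA and 6 none in the untreated library. Those detected were OPN1SW (49 reads in the DHA and 61 in the untreated library), PDE6A (5 and 6) and PDE6B (2 and 0). The 3 leukocyte markers had no reads in either library.

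The ZNF genes of chromosome 19 together took a larger share of the DHA library. Their 249 genes had 30121 reads in DHA-treated cells (95% Poisson interval 29782 to 30463) and 25317 in untreated cells (25006 to 25631), which is 0.207% of the counted reads (Clopper-Pearson interval 0.205 to 0.210%) in DHA-treated cells and 0.164% (0.162 to 0.166%) in untreated cells. After scaling, the summed level was 1.26-fold higher (1.24 to 1.28). The ZNF genes of other chromosomes summed to 71591 and 64615 reads, 1.17-fold higher (1.16 to 1.18). The difference between these sums was not tested, since 1 library in each group allows no test. In bulk RNA a smaller number of cells that express a gene and less RNA per cell cannot be told apart.

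Most members had few reads. In the DHA library 208 members had at least 1 read and 41 had none, and in the untreated library 213 had at least 1 and 36 had none. All 36 were also without reads in the DHA library, and a count of 0 allows up to 3 reads in a library of this depth. That bound covers counting only. Some of the 36 share most of their exon length with other genes, such as ZNF177 (90.8%) and ZNF625 (83.3%). How reads in shared exons were counted is unknown here. A minimum of 50 reads in the library with more reads was passed by 149 members. Of these, 126 passed it in both libraries, 16 passed through the DHA library alone and 7 through the untreated library alone, so the minimum itself adds members on both sides, more on the higher side. The 100 members under the minimum had 1274 reads in DHA-treated and 1320 in untreated cells, a scaled ratio of 1.02 (0.943 to 1.10).

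**Figure D1:**
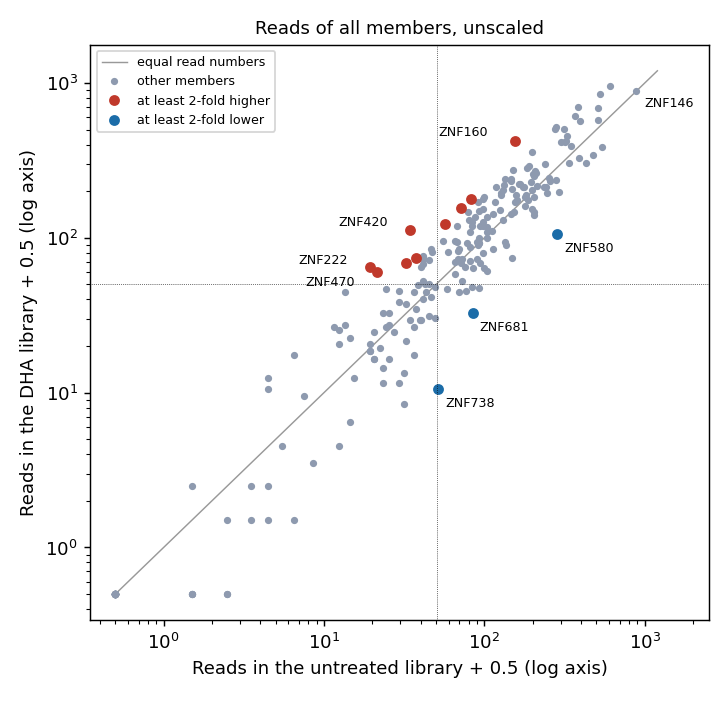
Reads of the 249 members in the DHA library (vertical axis) and the untreated library (horizontal axis), both with 0.5 added and on log axes, before scaling. Dotted lines mark the minimum of 50 reads. Red points are the 9 members called at least 2-fold higher and blue points the 3 called lower.

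A member was called when it passed the minimum, differed by at least 2-fold and had a 95% counting interval that excluded equal levels. By this rule 9 of the 149 members (6.04%) were higher and 3 (2.01%) lower in the DHA library. Over all 12064 genes with the minimum the shares were 6.72% higher and 10.3% lower, and over the 211 ZNF genes of other chromosomes with the minimum 1.9% (4 genes) and 2.84% (6 genes). The share of members called higher was thus near that of all genes. The bulk of the members lay somewhat above equality rather than far from it. Their median log2 ratio was 0.36, with quartiles at -0.06 and 0.74, against 0.25 for the ZNF genes of other chromosomes and 0.04 over all genes. A ratio above 1 was found in 110 members (73.8%), in 63% of the other ZNF genes and in 52.2% of all genes. At 1.5-fold, 50 members (33.6%) were higher and 8 (5.37%) lower, against 24.2% and 9.48% of the other ZNF genes and 18.9% and 19.2% of all genes. The counting interval lay wholly above equality in 78 members (52.3%) and below it in 18 (12.1%), against 44.1% and 17.5% of the other ZNF genes and 39.8% and 35.5% of all genes. Across the other scalings the members' median was 0.30 to 0.37, and it was 0.37 after adjustment for trends with length and GC. With the minimum set on the sum of both libraries, which favours neither side, it was 0.34.

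Read depth differs between the family and other genes, so values were also set side by side within read classes. From 50 to under 200 reads in the library with more reads, 93 members had a median log2 ratio of 0.32, against 0.16 in 100 ZNF genes of other chromosomes and -0.15 in 2113 protein-coding genes. From 200 to under 500 reads the medians were 0.38 (44 members), 0.14 (65 genes) and -0.002 (2644 genes). At 500 or more reads they were 0.74 (12 members), 0.41 (46 genes) and 0.11 (6464 genes). Protein-coding genes with few reads tended to be lower in the DHA library, and the members in the same class did not share that direction. In the lowest class 8.60% of members were at least 2-fold higher and 2.15% lower, whereas 7.43% of protein-coding genes were higher and 20.6% lower.

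**Figure D2:**
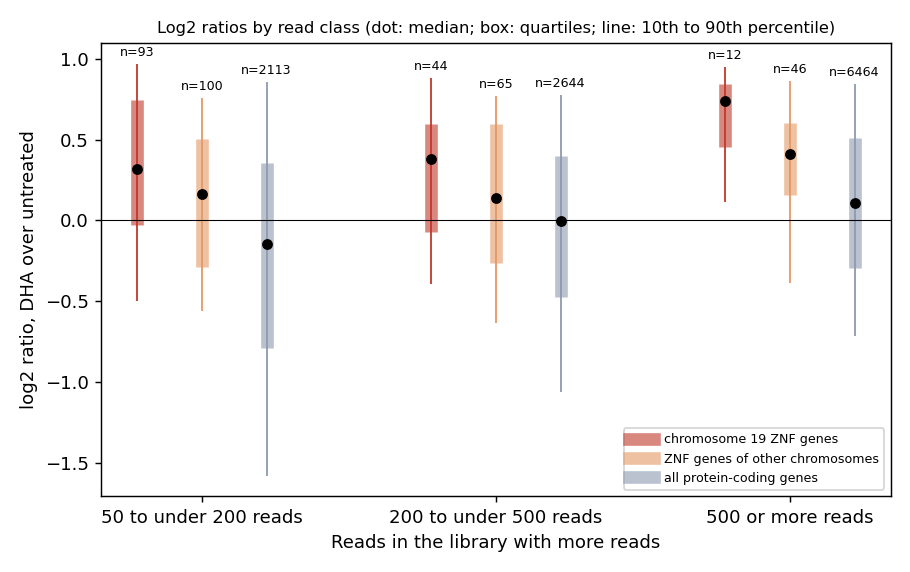
Log2 ratios of DHA over untreated for chromosome 19 ZNF genes, ZNF genes of other chromosomes and all protein-coding genes in 3 classes of reads. The members' medians of 0.32, 0.38 and 0.74 lie above those of both other sets in each class.

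The 9 members at least 2-fold higher came from 5 clusters. Of these, ZNF420, ZNF222, ZNF470, ZNF350 and ZNF461 passed the minimum through the DHA library alone, the library in which they were higher. ZNF160, reported as a repressor of the innate receptor gene TLR4, had the most reads among them, with 421 in the DHA and 154 in the untreated library (3.39 and 1.18 RPKM, a level scaled to gene length and library size). It was 2.88-fold higher (95% counting interval 2.40 to 3.50). It was also the one called member on the higher side with over 200 reads, so that the other 8 rest on fewer reads and wider intervals. ZNF420, known as Apak and reported as a negative regulator of p53, had 112 reads in DHA-treated and 34 in untreated cells, 3.44-fold higher (2.35 to 5.27). ZNF222 had 64 and 19 reads, 3.49-fold higher (2.10 to 6.29), with 17.2% of its exons overlapping another gene. ZNF470 had 60 and 21 reads, 2.97-fold higher (1.81 to 5.22).

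ZNF136 (155 reads in DHA-treated, 71 in untreated cells), ZNF225 (122 and 56) and ZNF841 (177 and 82) were 2.30-fold, 2.29-fold and 2.27-fold higher. ZNF350, also called ZBRK1, a repressor that acts with BRCA1 on the gene GADD45A, had 68 and 32 reads and was 2.23-fold higher (1.45 to 3.53). ZNF461 was just inside the limit, with 74 and 37 reads, 2.10-fold higher (1.41 to 3.22). ZNF426, with 518 and 279 reads, lay just outside it at 1.96-fold (1.69 to 2.28).

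The 3 members at least 2-fold lower were ZNF738, ZNF681 and ZNF580. ZNF738 had 10 reads in DHA-treated and 51 in untreated cells, 4.64-fold lower (2.42 to 10.7). ZNF681 had 32 and 84 reads, 2.46-fold lower (1.64 to 3.86). Both passed the minimum through the untreated library alone, and both lie in the same cluster, near the centromere on the short arm. ZNF580 had 106 and 285 reads, 2.54-fold lower (2.03 to 3.21), with 15.1% of its exons overlapping another gene. The genes ZNF580 and ZNF581 overlap on the same strand. CCDC106, whose gene starts within both, had 98 and 420 reads and a log2 ratio of -2.02. The next lowest ratio past the minimum was that of ZNF180, with 74 and 149 reads and a log2 ratio of -0.93 (-1.35 to -0.52).

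Sorted by start position, the members formed 16 groups separated by gaps of over 1 Mb between neighbouring starts, and 7 of these held at least 10 members with the minimum. From the short arm end onward, their median log2 ratios were 0.50 for the cluster from ZNF557 to ZNF846, 0.34 from ZNF653 to ZNF791, -0.30 from ZNF101 to ZNF254, 0.52 from ZNF565 to ZNF573, 0.50 from ZNF575 to ZNF296, 0.74 from ZNF175 to ZNF331 and 0.13 from ZNF628 to ZNF446. The clusters therefore differed from each other in direction and size. The highest and the lowest kept their sign under every scaling, read minimum, pseudocount and trend removal tried. The spread between clusters was not tested. Members of a cluster resemble each other in sequence and are not independent measurements.

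**Figure D3:**
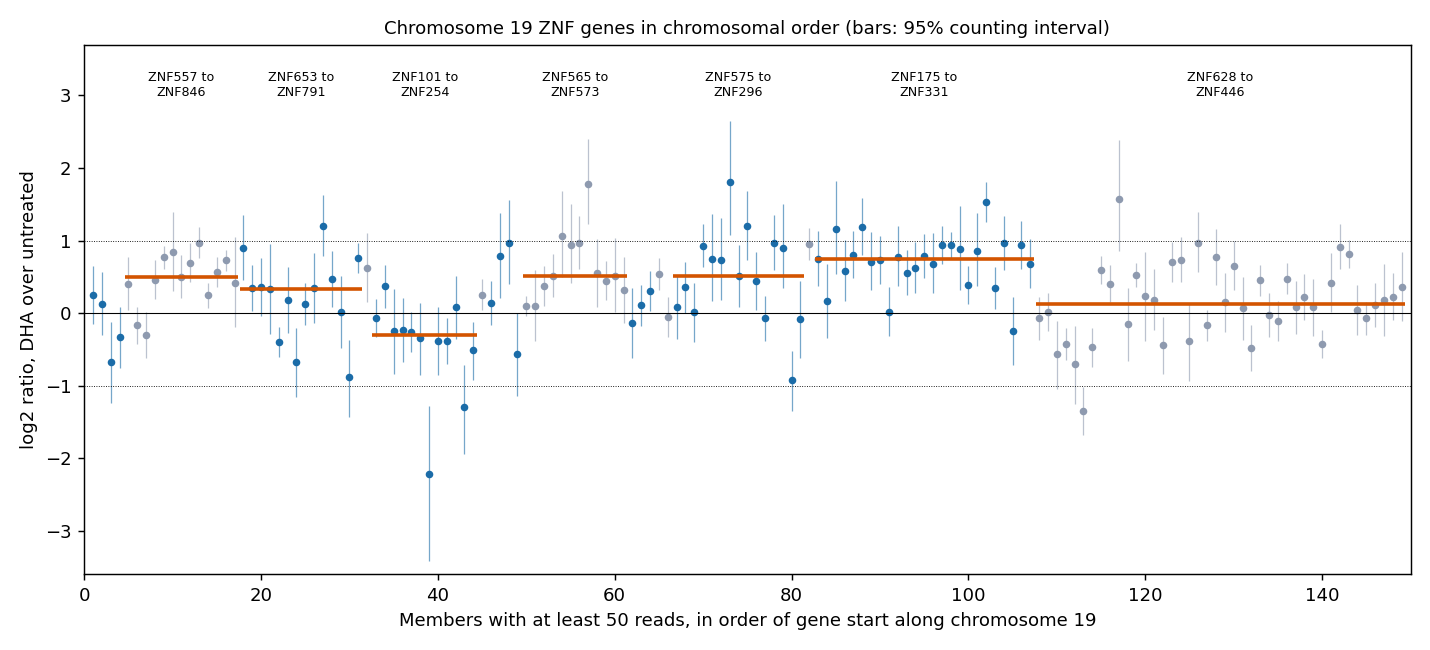
Log2 ratios of DHA over untreated for the 149 members with the minimum of reads, in order of position along chromosome 19. Thin bars are 95% counting intervals, colours alternate between clusters, orange lines are medians of clusters with at least 10 such members and dotted lines mark 2-fold. The ZNF175 to ZNF331 cluster lies highest, with a median of 0.74, and the ZNF101 to ZNF254 cluster lowest, at -0.30.

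The cluster from ZNF175 to ZNF331 (GRCh38, chromosome 19, 51571298 to 53580269) had the highest median under the minimum of 50 reads, though at 200 reads the ZNF575 to ZNF296 cluster had a higher one (0.93 against 0.79). Its 40 members summed to 5128 reads in DHA-treated cells (Poisson interval 4989 to 5270) and 3280 in untreated cells (3169 to 3394), 1.65-fold higher after scaling (1.58 to 1.73). Of the 25 members with the minimum, 24 had a ratio above 1 and 22 had an interval wholly above equality, although 3 (ZNF160, ZNF841 and ZNF350) passed 2-fold. No member had an interval wholly below equality. By comparison, the share with an interval above equality was 39.8% over all genes. It was 44.1% over the ZNF genes of other chromosomes and 52.3% over all members with the minimum. The cluster was singled out by its high median, so a high share here follows in part from that choice. In this cluster 23 of the 25 had 50 or more reads in both libraries, so the minimum admitted 2 through the DHA library alone.

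Within it, ZNF468 had 695 reads in DHA-treated and 383 in untreated cells (4.20 and 2.19 RPKM), a log2 ratio of 0.94 (0.76 to 1.12). Much of its sequence is ambiguous, as 55.8% of its 50-base words occur in another gene. ZNF28 had 359 and 198 reads (4.12 and 2.15 RPKM), also 0.94 (0.68 to 1.20), with 9.86% of words shared. ZNF845, ZNF765 and ZNF816 had log2 ratios of 0.96, 0.93 and 0.86. ZNF175, known as OTK18 and described as a suppressor of HIV in macrophages, had 154 and 97 reads and 0.74 (0.37 to 1.13). Among the 25 members with the minimum, the lowest were ZNF525 at -0.24 (-0.71 to 0.22), with 72 and 90 reads, ZNF480 at 0.02 (-0.32 to 0.36) and ZNF613 at 0.16 (-0.35 to 0.68), and none of these 3 was distinguishable from equality at this depth. Without members that share over 30% of their 50-base words the cluster's median was 0.73.

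Other genes and pseudogenes inside this interval lay on both sides of equality. PPP2R1A, which encodes the scaffold subunit of protein phosphatase PP2A and is the sole other protein-coding gene there with the minimum, had 4179 reads in DHA-treated and 4948 in untreated cells, a log2 ratio of -0.16 (-0.22 to -0.11). Of 4 noncoding genes with the minimum, 3 pseudogenes were higher, ZNF137P (77 and 27 reads, log2 ratio 1.57), TPM3P9 (292 and 146, 1.08) and AC092070.2 (119 and 70, 0.84). The pseudogene ZNF702P was lower, with 73 and 141 reads and -0.87 (-1.30 to -0.45). ZNF137P and ZNF702P are by name relatives of the family.

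The cluster from ZNF101 to ZNF254 (chromosome 19, 19668796 to 24129961) went the other way. Its 37 members summed to 1488 reads in DHA-treated cells (1413 to 1566) and 1788 in untreated cells (1706 to 1873), a scaled ratio of 0.879 (0.820 to 0.942). It was also the most silent of the large clusters, with 15 members without a read in either library and 12 with the minimum. Of those 12, 2 had a ratio above 1 and 10 below, with 4 intervals wholly below equality and 1 above. The 33.3% with an interval below equality was no excess over all genes, of which 35.5% had one. The share was 17.5% over the ZNF genes of other chromosomes and 12.1% over all members with the minimum. A ratio above 1 was found in 16.7% of the 12 members, against 52.2% of all genes. Among protein-coding genes with 50 to under 200 reads the share was 42.8%. The cluster was singled out by its low median, so these shares follow in part from that choice. ZNF91, which represses SVA retrotransposons, had 147 reads in DHA-treated and 203 in untreated cells, a log2 ratio of -0.39 (-0.70 to -0.07). ZNF254 had 90 and 136 reads and -0.51 (-0.92 to -0.12). ZNF506 was the member with an interval above equality, with 214 and 175 reads and 0.37 (0.07 to 0.67), and ZNF675, an inhibitor of TRAF6 signalling, had 92 reads in each library. The minimum admitted 3 of the 12 through the untreated library alone and 0 through the DHA library alone, and with the minimum on the sum of both libraries the median was -0.26.

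All 5 noncoding genes with the minimum in this interval also had ratios below 1. The long noncoding RNA LINC01224 had 7 reads in DHA-treated and 86 in untreated cells, a log2 ratio of -3.45 (-4.90 to -2.44), and RPSAP58 had 569 and 638 reads and -0.09 (-0.25 to 0.08). No protein-coding gene other than a zinc finger gene reached the minimum there.

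**Figure D4:**
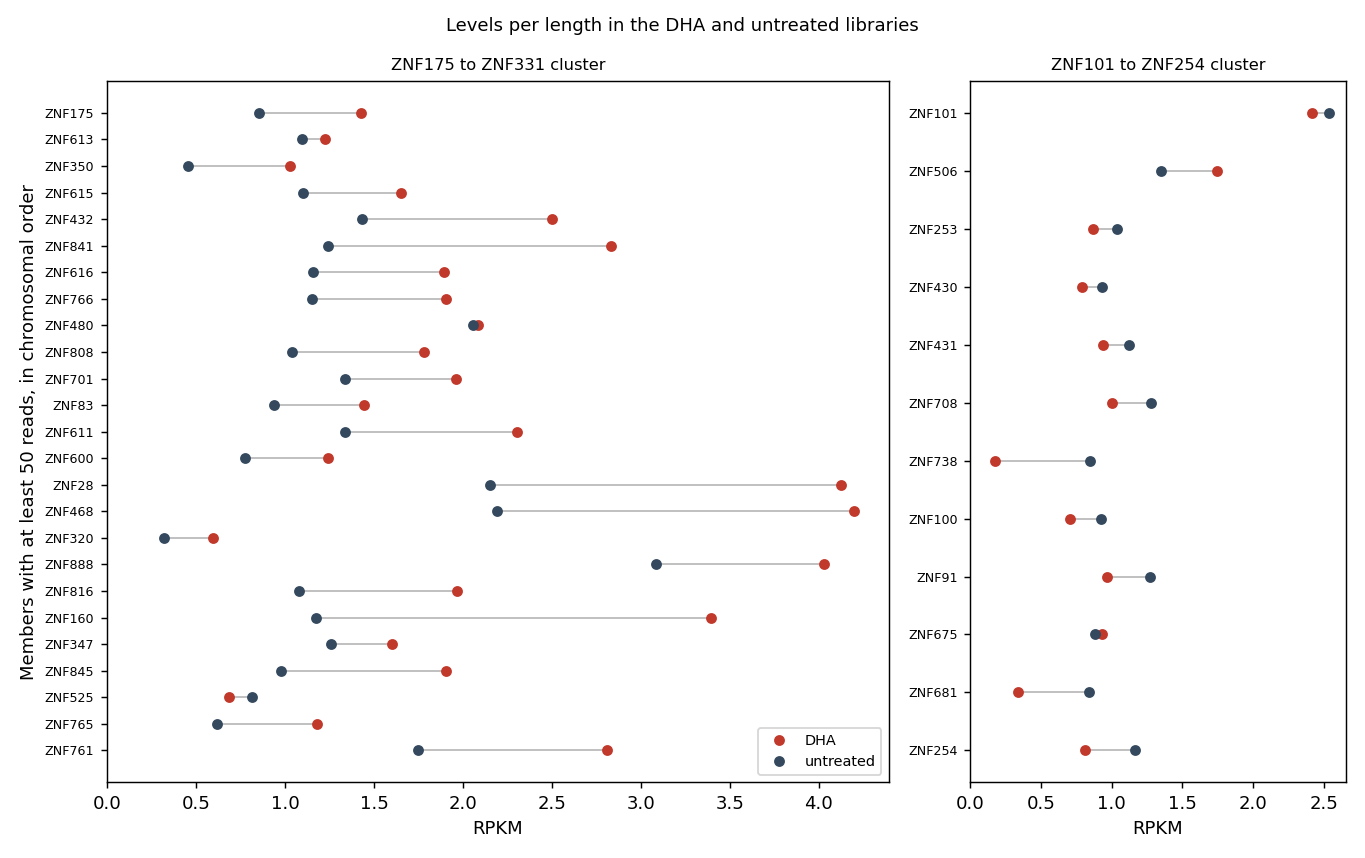
Levels in RPKM (reads scaled to gene length and library size) in the DHA library (red) and the untreated library (dark blue) for the members with the minimum of reads in the clusters with the highest and the lowest median, in chromosomal order from top to bottom. In 24 of 25 members on the left the red point lies to the right of the dark one, and in 10 of 12 members on the right it lies to the left.

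The other large clusters lay between these. Their counts of intervals above equality stand beside 39.8% of all genes and 44.1% of the ZNF genes of other chromosomes. From ZNF565 to ZNF573, all 12 members with the minimum had ratios above 1 and 9 had intervals above equality, from ZNF146 at 0.10 (-0.04 to 0.23) to ZNF420. From ZNF557 to ZNF846, 11 of 13 were above 1, 10 of them with intervals above equality, led by ZNF426, ZNF699 (80 and 47 reads, 0.84) and ZNF317. From ZNF575 to ZNF296, 12 of 15 were above 1, with intervals above equality in 10 and below in 1. Those above 1 included ZNF45 (273 and 151 reads, 0.93) and ZNF224 (109 and 81 reads, 0.50, with 39.8% of its 50-base words shared). ZNF224 is a repressor of the aldolase A gene. ZNF180 was at -0.93. The same cluster span holds the urokinase receptor gene PLAUR, with 2779 and 244 reads. Its log2 ratio of 3.59 was far from those of its zinc finger neighbours. From ZNF653 to ZNF791, 11 of 14 were above 1. Of these 14, 5 (35.7%) had intervals above equality, no excess over all genes, and 3 had intervals below. ZNF443 was lowest at -0.88, with 37.7% of its 50-base words shared.

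The cluster nearest the long arm end, from ZNF628 to ZNF446, was mixed, with 27 of 42 members above 1 and intervals above equality in 14 and below in 8. These counts are no excess over all genes, of which 39.8% had an interval above equality and 35.5% below. Split at gaps of 0.5 Mb, its first part from ZNF628 to ZNF835 had a median of -0.15 over 11 members, and its second part from ZNF264 to ZNF446 had 0.18 over 31. The first part holds ZNF580, ZNF581, ZNF524, ZNF784 and ZNF865, with ratios below 1 and intervals below equality, but also ZNF470, ZNF787 (567 and 397 reads, 0.59) and ZNF444 (299 and 238 reads, 0.41), with ratios above 1. Its median transcript GC content was 64.8%, against 45.8% in the second part, and ZNF787 had 70.3%. ZNF274, which binds the finger exons of other ZNF genes and recruits SETDB1 there, lies in the second part and had 615 reads in DHA-treated and 369 in untreated cells, a log2 ratio of 0.82 (0.63 to 1.01). Outside the large clusters, ZNF473, also called ZFP100, a component of histone pre-mRNA processing, had 502 and 274 reads and 0.95 (0.74 to 1.17).

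Per length, the most abundant member was ZNF146, a protein made almost wholly of fingers whose gene is amplified in some pancreatic cancers. It had 890 reads in DHA-treated and 878 in untreated cells, or 14.7 and 13.8 RPKM, a log2 ratio of 0.10 whose interval includes equality. ZNF581 (7.82 RPKM in DHA-treated, 10.9 in untreated cells) and ZNF317 (11.5 and 6.72 RPKM) followed, with log2 ratios of -0.47 (-0.74 to -0.21) and 0.77 (0.61 to 0.93). Exon overlap with another gene was 23.4% for ZNF581, whose gene overlaps ZNF580, and 34.4% for ZNF358. ZNF787 had 10.6 and 7.03 RPKM and a log2 ratio of 0.59. ZNF358 had 7.79 and 8.76 RPKM, ZNF865 5.19 and 6.97, ZNF574 6.10 and 4.20, ZNF428 5.71 and 4.47, ZNF121 5.44 and 4.60, and ZNF579 5.02 and 4.97 RPKM. These 10 most abundant members thus lay on both sides of equality, and 7 of them had GC contents over 59% in their longest transcript, in contrast to the family's median of 42.2%.

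Sequence features divided the members to some degree. Among members with the minimum, the 31 without a linker match had a median log2 ratio of 0.08, and those with 1 to 5, 6 to 10 and over 10 matches had 0.48 (40 members), 0.36 (47) and 0.47 (31). By GC content of the longest transcript, 101 members under 45% had a median of 0.44, 29 between 45 and 55% had 0.22, and 19 over 55% had -0.06. These splits overlap, since members without a linker match had a median GC content of 51.6%, and all points come from the same libraries. Across the 149 members the Spearman correlation of the log2 ratio with the number of linker matches was 0.23, with GC content -0.09 and with the share of ambiguous 50-base words 0.04, given as descriptions of points that share libraries and depth.

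Promoters from RefSeq (GRCh38.p14, 250 bases before to 50 after the gene start) matched 217 of the 249 members. They are shown for the same 3 genes, 5′ to 3′ on the gene's minus strand, with CpG dinucleotides in capitals, as examples of promoters rich and poor in CpG. The coordinates are chr19:53103373-53103672 for ZNF160, chr19:52095716-52096015 for ZNF841 and chr19:23758842-23759141 for ZNF681.
ZNF160: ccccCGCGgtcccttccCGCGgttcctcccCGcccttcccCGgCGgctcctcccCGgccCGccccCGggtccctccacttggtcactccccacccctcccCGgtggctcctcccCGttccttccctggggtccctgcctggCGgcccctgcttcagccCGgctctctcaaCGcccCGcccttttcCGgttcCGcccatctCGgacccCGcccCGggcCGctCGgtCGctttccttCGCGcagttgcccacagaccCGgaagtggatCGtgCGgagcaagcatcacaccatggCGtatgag
ZNF841: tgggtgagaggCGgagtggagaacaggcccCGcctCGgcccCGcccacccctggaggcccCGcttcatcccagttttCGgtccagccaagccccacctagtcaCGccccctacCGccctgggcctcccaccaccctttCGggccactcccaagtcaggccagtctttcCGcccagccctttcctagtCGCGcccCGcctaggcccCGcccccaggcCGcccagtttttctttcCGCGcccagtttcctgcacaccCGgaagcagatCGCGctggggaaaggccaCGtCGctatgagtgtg
ZNF681: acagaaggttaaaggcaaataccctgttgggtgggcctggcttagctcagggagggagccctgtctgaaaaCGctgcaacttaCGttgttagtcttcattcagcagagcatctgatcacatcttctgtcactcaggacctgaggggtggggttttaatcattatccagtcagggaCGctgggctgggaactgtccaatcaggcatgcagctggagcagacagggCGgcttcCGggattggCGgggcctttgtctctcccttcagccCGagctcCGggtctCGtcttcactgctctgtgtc
These promoters held 30, 22 and 9 CpG in that order. The number of CpG did not order the called members with a matched promoter by direction. ZNF580, which was lower, had 35, and ZNF222, ZNF225 and ZNF350, which were higher, had 14, 15 and 17. ZNF738, also lower, had no matched promoter, so the lower side rests on ZNF580 and ZNF681 alone. Members had a median of 20, other ZNF genes 24 and all protein-coding genes 22. Over members with the minimum and a matched promoter, the median was 26 in the ZNF175 to ZNF331 cluster and 10 in the ZNF101 to ZNF254 cluster. Motifs of stress-responsive factors were searched on both strands. The AP-1 motif TGANTCA was found in 14 members (6.45%) and 5.78% of all protein-coding promoters, the ATF4 element TGATGNAAN in 4 (1.84%) and 2.50%, and the antioxidant element TGACNNNGC, which can overlap the AP-1 motif, in 31 (14.3%) and 14.3%.

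Transcripts of the genes for proteins through which KRAB domains act had a median slightly below equality in the DHA library. Of 29 cofactor genes, all with the minimum, 0 were at least 2-fold higher and 3 were lower (10.3%, equal to the share of all genes called lower), with a median log2 ratio of -0.08. TRIM28, the scaffold, had 6913 reads in DHA-treated and 7715 in untreated cells (118 and 124 RPKM), a log2 ratio of -0.08 (-0.13 to -0.03). SETDB1 had 428 and 413 reads and 0.13 (-0.07 to 0.33). The 3 lower genes were UHRF1, which directs maintenance of DNA methylation (579 and 1931 reads, -1.66), CBX5, which encodes HP1 alpha (1952 and 5308, -1.36), and the histone chaperone gene RBBP4 (1824 and 4526, -1.23). HDAC1 had -0.98 and passed 2-fold lower with DESeq2 size factors and with upper-quartile scaling. The other HP1 genes CBX3 and CBX1 had -0.41 and -0.23, DNMT1 had -0.68 and MORC3, a silencing ATPase gene, was highest at 0.68.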

How the data were processed

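RNA-seq was done on 1 DHA-treated and 1 untreated culture, grouped by their treatment labels. The authors deposited raw read counts for each gene, per the file headers, beside gene lengths and coordinates. Per the labels' protocols, libraries came from total RNA with an Illumina kit. The same text names retina, and mm8, a mouse build, appears in the submitters' processing notes, whereas all 58735 rows equalled GENCODE release 29 on GRCh38 in coordinates, name and exon union length. Aligner, counter and strand use were not given in the sources used here.

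Counts were scaled by TMM over all genes (edgeR 4.0.16, R 4.3.3), ratios were taken after adding 0.5 reads, and 95% intervals are exact Clopper-Pearson intervals of the DHA share of a gene's reads. They cover counting error only, since each group had 1 library. They may be too narrow even for that, since PCR copies are not independent molecules. Their median half-width on the log2 scale was 0.38 among members with the minimum of 50 reads. RPKM were computed with the deposited lengths. GC content, linker matches and shared 50-base words came from GENCODE transcripts. No p-value was computed.

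The genes and lists were chosen with earlier results of these data known. Members named by rule are those called, the 10 with the highest RPKM and the extreme member of each cluster. Other named members, the neighbouring genes, the promoter motifs and the sequences shown were chosen after their values were seen. Alternatives covered scaling (DESeq2 1.42.0 among others), read minimums, pseudocounts, folds, intervals, trends, shared exons and cluster gaps. Protein features were not analysed here.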

Additional observations from a re-analysis of the deposited data

How the results depend on the processing

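With 1 library in each group no library could be left out, and no paired analysis was possible because the labels give no replicate numbers and there is no second pair. The members' counts of 9 higher and 3 lower stayed within 1.5 times under the 4 other scalings, 2 other pseudocounts, the 99% interval, both trend removals and the removal of genes that share exons or 50-base words, the last added after the data had been seen. They moved with the limits. At a minimum of 20, 100, 200 and 1 reads, members higher were 14, 5, 1 and 15 and members lower 6, 1, 1 and 6. At 1.5-fold they were 50 and 8, and at 3-fold 2 and 1. The ZNF genes of other chromosomes had 1 higher and 2 lower at 200 reads, 51 and 20 at 1.5-fold, 0 higher at 3-fold, and 7 higher with the length trend removed. The members' median was 0.22 with a minimum of 1 read.

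Cluster medians at a minimum of 200 reads were 0.12 (ZNF653 to ZNF791), -0.16 (ZNF101 to ZNF254), 0.41 (ZNF565 to ZNF573), 0.93 (ZNF575 to ZNF296) and 0.015 (ZNF628 to ZNF446), from few members each. At 1 read they were 0.41 (ZNF565 to ZNF573) and 0.35 (ZNF575 to ZNF296). The ZNF575 to ZNF296 cluster had 0.62 with gaps of 0.5 Mb and 0.40 with gaps of 2 Mb, where the ZNF175 to ZNF331 and ZNF628 to ZNF446 clusters merge, at 0.41. The members' share of reads was 0.201% (DHA) and 0.161% (untreated) without genes that share over 50% of exon length, and 0.195% and 0.153% without those that share over 30% of their 50-base words. ZNF30 passed 2-fold higher with the length trend (1.09) or the length and GC trend (1.09) removed. The cause of these shifts was not tested, except that other limits and gaps admit other genes. Depth limits most members, since an interval at about 100 reads spans more than the family's median ratio.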

Other observations

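Zinc finger genes of chromosome 19 that carry other names were sought by name stems such as ZFP, ZSCAN, ZBTB and KLF. This gave 22 genes, of which 8 passed the minimum, and the list is not complete. The zinc finger genes HKR1 (147 and 177 reads, log2 ratio -0.19) and FIZ1 (211 and 229 reads, -0.04) fall outside it. The summed reads of all 22 were 2707 in DHA-treated and 1872 in untreated cells, 1.53-fold higher (1.44 to 1.62). KLF2, a Krüppel-like transcription factor gene, had 193 and 50 reads, a log2 ratio of 2.02 (1.57 to 2.51). ZFP36, which encodes an RNA-binding protein that destabilises AU-rich transcripts and is no C2H2 protein, had 336 and 185 reads and 0.94 (0.68 to 1.21). The imprinted genes PEG3 and ZIM2 had no reads in either library.

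Among ZNF genes of other chromosomes the largest differences were on the lower side. ZNF467 had 4 reads in DHA-treated and 114 in untreated cells, ZNF618 had 46 and 427, and ZNF488 had 193 and 1670, with log2 ratios of -4.59, -3.12 and -3.03. No chromosome 19 member with the minimum had a log2 ratio below -2.22.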
